A study of Homo sapiens with 12 samples.

Results

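The S100 calcium-binding protein genes followed here are S100A8, S100A9, S100A12, S100P, S100A4, S100A6, S100A10 and S100A11. They were taken by symbol from the deposited expression table, which held all 8 among its 13881 listed genes. RNA sequencing covered a pair of established human lines of acute myeloid leukaemia (AML), KG-1 and MOLM-14, of which MOLM-14 has monocytic features. Each line was treated for 96 h with ASLAN003, an inhibitor of dihydroorotate dehydrogenase in the de novo synthesis of pyrimidines, or with its solvent DMSO, at a dose that no source used here gives. The groups were KG-1 with ASLAN003, KG-1 with DMSO, MOLM-14 with ASLAN003 and MOLM-14 with DMSO. Each group had 3 libraries, 12 in all, and all cells grew in RPMI medium with serum. The labels say that treatments were triplicated, not that the cultures were separate, so the p-values measure only the spread between libraries, which may be technical.

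S100 proteins are small proteins with EF-hand calcium-binding loops that mostly work as dimers. S100A8 and S100A9 pair as calprotectin, a major cytosolic protein of neutrophils and monocytes that binds zinc and manganese and, once released, acts on TLR4 and on the receptor for advanced glycation end products. S100A12 is a related protein of human phagocytes, and these 3 are called calgranulins. S100A4, S100A6, S100A10 and S100A11 are found in many cell types and bind partners such as non-muscle myosin, the calcyclin-binding protein and annexins. In the myeloid lineage the calgranulin genes are known as genes of maturing granulocytes and monocytes.

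Of the members, 7 lie on chromosome 1 and S100P lies on chromosome 4 (GRCh38, positions from GENCODE 29). S100A9 (chr1:153357854-153361027, plus strand), S100A12 (chr1:153373706-153375649, minus strand) and S100A8 (chr1:153390032-153391188, minus strand) span 33.3 kb. S100A6 (chr1:153534599-153536244, minus strand) and S100A4 (chr1:153543613-153550136, minus strand) span 15.5 kb. S100A10 (chr1:151982915-151994390, minus strand) and S100A11 (chr1:152032506-152047907, minus strand) span 65.0 kb, and all 7 lie within 1567.2 kb. S100P occupies chr4:6693069-6697170 on the plus strand. S100A4 spans S100A3 on the same strand (2044 shared bases), and S100A6 and S100A11 overlap antisense genes on the opposite strand (517 and 10269 bases). None of these overlapping genes is in the table. The kit was stranded, but no source used here says whether reads were counted by strand. Reads of the opposite-strand pairs may therefore not have been separated, and strand cannot separate those of S100A4 and S100A3.

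The promoter windows of the 3 calgranulin genes are shown because these genes had the largest rises of the family in both lines. Each is the 250 bases before the outermost RefSeq start on GRCh38.p14, in the direction of the gene, and capitals mark matches to the motifs searched. S100A8 lies at chr1:153391189-153391438 on the minus strand, S100A9 at chr1:153357604-153357853 on the plus strand, and S100A12 at chr1:153375622-153375871 on the minus strand, where the last 28 bases lie in an exon of the GENCODE gene.

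S100A8 promoter: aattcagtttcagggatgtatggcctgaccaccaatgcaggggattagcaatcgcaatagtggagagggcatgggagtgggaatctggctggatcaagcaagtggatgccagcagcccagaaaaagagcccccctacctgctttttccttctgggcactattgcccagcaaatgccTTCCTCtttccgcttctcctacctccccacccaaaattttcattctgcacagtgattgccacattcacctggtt
S100A9 promoter: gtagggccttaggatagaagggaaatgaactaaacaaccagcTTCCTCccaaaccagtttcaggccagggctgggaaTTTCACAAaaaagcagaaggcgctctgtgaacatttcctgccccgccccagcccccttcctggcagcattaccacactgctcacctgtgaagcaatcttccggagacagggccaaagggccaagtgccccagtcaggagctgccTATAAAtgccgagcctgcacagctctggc
S100A12 promoter: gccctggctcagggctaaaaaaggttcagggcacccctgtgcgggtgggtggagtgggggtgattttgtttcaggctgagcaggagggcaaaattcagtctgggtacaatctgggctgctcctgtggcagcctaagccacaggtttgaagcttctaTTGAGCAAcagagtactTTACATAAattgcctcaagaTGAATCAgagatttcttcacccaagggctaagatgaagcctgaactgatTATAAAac

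The motifs were searched on both strands. They were TTNCNNAA (C/EBP-like), GAGGAA (PU.1-like, which reads TTCCTC on the other strand), TGANTCA (AP-1) and TATAAA (the TATA box). In the S100A9 window, TTCCTC begins 208 bases, TTTCACAA 173 bases and TATAAA 29 bases before the start. In the S100A12 window, TTGAGCAA begins 94 bases, TTACATAA 77 bases, TGAATCA 57 bases and TATAAA 8 bases before the start. The S100A8 window holds TTCCTC alone, 74 bases before the outermost of its 3 RefSeq starts. Before the middle start, TTCCTC begins 189 bases, the C/EBP-like TTGAGAAA 117 bases and TATAAA 29 bases away. Before the innermost start, TTGAGAAA begins 214 bases, TATAAA 126 bases and the C/EBP-like TTTCAGAA 78 bases away. With only the outermost start of each member counted, 5 of 8 windows held the C/EBP-like motif. Over 34943 RefSeq windows of the same length the share was 33.2%. TATAAA, at any place in the window, was in 4 of 8 member windows against 10.8% of all windows. The PU.1-like motif was in 2 of 8 against 23.6%, and the AP-1 motif in 1 of 8 against 6.59%. The TATAAA of S100A12 lies in the part of its window that is exon in GENCODE. These are matches of letters and no binding was measured.

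The libraries held an estimated 18200000 to 19000000 fragments each, read from the steps of the low values. On principal components of the tested genes, component 1 (61.8% of the variance) split KG-1 from MOLM-14 and component 2 (16.3%) split the treatments. MOLM-14 ASLAN003 replicate 1 stood apart from its group, at -36.2 on component 2 against -14.6 and -9.37 for replicates 2 and 3. Results that it moved by over 1.5 times or whose call it decided are given with and without it, for changes under ASLAN003 on the log2 scale. Replicates of a group had a median SD per gene of 0.155 in KG-1 ASLAN003, 0.129 in KG-1 DMSO, 0.271 in MOLM-14 ASLAN003 and 0.177 in MOLM-14 DMSO on the log2 scale. The summed level of 7 myeloid markers was 2149 to 2503 FPKM in KG-1 ASLAN003, 3152 to 3860 FPKM in KG-1 DMSO, 3729 to 4968 FPKM in MOLM-14 ASLAN003 and 1894 to 2089 FPKM in MOLM-14 DMSO. These markers did not move together. Under ASLAN003, LYZ, which encodes lysozyme, rose by 3.19 in KG-1 and 2.32 in MOLM-14 on the log2 scale (adjusted p = 1.37e-08 and 6.82e-07). MPO, which encodes myeloperoxidase, fell by 2.05 and 1.89 (adjusted p = 1.57e-06 and 3.44e-05), and ELANE, which encodes neutrophil elastase, by 1.66 and 0.88 (adjusted p = 1.5e-06 and 0.00109). In KG-1, ELANE averaged 962 ± 178 FPKM with ASLAN003 and 3031 ± 336 FPKM with DMSO (SD, n = 3 each). PTPRC, which encodes CD45, rose in KG-1 (1.25, adjusted p = 0.000214), SPI1 rose in both lines, and CD33 was not called in either. The part of these markers in the results on the S100 genes was not tested. CD34, a progenitor marker that KG-1 is commonly described as carrying, was at most 0.17 FPKM in every library. Of the markers of other cells, none of 5 erythroid genes was listed, megakaryocyte markers summed to at most 3.44 FPKM, lymphoid markers to at most 0.22 FPKM and epithelial markers to at most 2.49 FPKM. In such bulk samples, more cells of a type and more RNA per cell cannot be told apart.

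All 8 S100 genes rose under ASLAN003 in both lines. The test was limma's moderated test on log2(FPKM + 1) over the 13353 genes that reached 1 FPKM in 3 or more libraries, and a gene was called at a Benjamini-Hochberg adjusted p under 0.05, written adjusted p here. FPKM is a fragment number scaled by transcript length and library size, so levels of different genes can be compared per length. In KG-1, 8 of 8 members were called higher, where 33.7% of all tested genes were called in either direction (19.4% higher and 14.3% lower). In MOLM-14, 8 of 8 were called higher, where 13% were called in either direction (9.69% higher and 3.33% lower). Members called higher in both lines numbered 8 of 8, against 5.66% of all tested genes. For every member, all 3 ASLAN003 libraries lay above all 3 DMSO libraries in each line, as did 31.4% of tested genes in KG-1 and 17.7% in MOLM-14. The median log2 change of the 8 members was 1.75 in KG-1 (range 1.13 to 5.38) and 2.28 in MOLM-14 (range 0.91 to 3.67), against 0.050 and 0.076 over all tested genes.

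**Figure D1:**
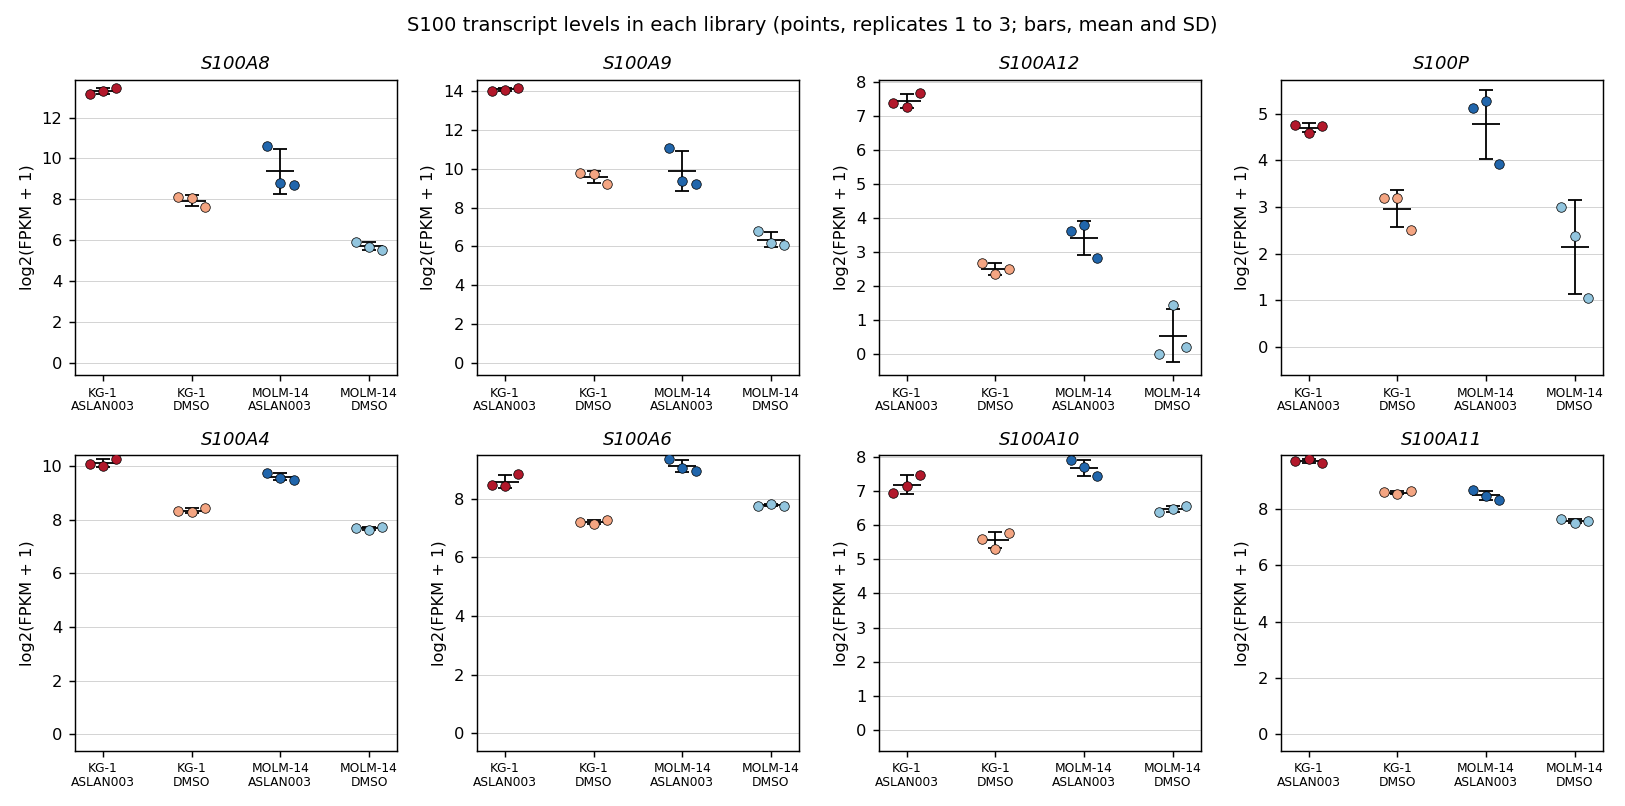
Level of each of the 8 S100 genes in every library, as log2(FPKM + 1), with 1 panel per gene, 1 point per library and the mean and SD of each group of 3 libraries drawn beside the points. In every panel the ASLAN003 libraries of a line lie above its DMSO libraries. In S100A8, S100A9, S100A12, S100A4 and S100A11 the KG-1 ASLAN003 libraries stand above all others.

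S100A8, the smaller subunit of calprotectin, had 9267, 9966 and 11244 FPKM in the KG-1 ASLAN003 libraries, against 275, 263 and 197 FPKM in the KG-1 DMSO libraries. It had 1569, 443 and 409.7 FPKM in the MOLM-14 ASLAN003 libraries, against 58.7, 49.6 and 45.1 FPKM in the MOLM-14 DMSO libraries. The groups did not overlap within either line, and MOLM-14 ASLAN003 replicate 1 was far above the other libraries of its group. The mean FPKM was 41.5-fold higher under ASLAN003 in KG-1 (log2 change 5.38 ± 0.41 SE, adjusted p = 6.81e-06) and 15.8-fold higher in MOLM-14 (3.67 ± 0.41, adjusted p = 0.000631). The 15.8-fold figure includes MOLM-14 ASLAN003 replicate 1, without which the log2 change of S100A8 in MOLM-14 was 3.04 (adjusted p = 6.35e-07). The MOLM-14 group medians of S100A8 were 443 FPKM with ASLAN003 and 49.6 FPKM with DMSO. Ordered by log2 rise, S100A8 was number 1 of the 13353 tested genes in KG-1 and in MOLM-14.

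S100A9, the other calprotectin subunit, had 16394, 17055 and 18241 FPKM in the KG-1 ASLAN003 libraries, against 881, 847 and 599 FPKM in the KG-1 DMSO libraries. It had 2102, 667 and 591 FPKM in the MOLM-14 ASLAN003 libraries, against 111, 72.5 and 65.7 FPKM in the MOLM-14 DMSO libraries. Replicate 1 of MOLM-14 ASLAN003 was again the highest of its group, and no group overlapped its control. Mean FPKM was 22.2-fold higher under ASLAN003 in KG-1 (log2 change 4.49 ± 0.41, adjusted p = 1.84e-05) and 13.5-fold higher in MOLM-14 (3.52 ± 0.41, adjusted p = 0.000716). The 13.5-fold figure includes that library, and leaving it out gave a log2 change of 2.94 for S100A9 in MOLM-14 (adjusted p = 4.4e-05). The MOLM-14 group medians of S100A9 were 667 FPKM with ASLAN003 and 72.5 FPKM with DMSO. S100A9 was number 6 by log2 rise in KG-1 and number 2 in MOLM-14. Among all 13881 listed genes it ranked number 1 by FPKM in each of the 3 KG-1 ASLAN003 libraries, where S100A8 ranked number 3. In the KG-1 DMSO libraries S100A9 ranked 134, 133 and 159 by FPKM. In MOLM-14 it ranked 59, 163 and 169 with ASLAN003, against 902, 1451 and 1604 with DMSO.

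S100A12, a zinc- and copper-binding calgranulin that mice lack, had 167, 154 and 205 FPKM in the KG-1 ASLAN003 libraries, against 5.50, 4.11 and 4.71 FPKM in the KG-1 DMSO libraries. It had 11.3, 12.9 and 6.21 FPKM in the MOLM-14 ASLAN003 libraries, against 0, 1.75 and 0.16 FPKM in the MOLM-14 DMSO libraries. The groups did not overlap, but S100A12 was near the lower end of what was measured in MOLM-14 DMSO. At the estimated depth, the MOLM-14 DMSO values correspond to about 0, 10.8 and 1.0 fragments, against 69.0, 79.5 and 38.0 fragments with ASLAN003. Mean FPKM was 36.7-fold higher in KG-1 (log2 change 4.93 ± 0.34, adjusted p = 8.11e-07), number 3 by rise of all tested genes. In MOLM-14 the log2 change was 2.86 ± 0.34 (adjusted p = 0.000296), and 4.75 with a pseudocount of 0.1 in place of 1. It was 2.76 in MOLM-14 without ASLAN003 replicate 1 (adjusted p = 0.00154).

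S100P, first described in placenta and a ligand of the receptor for advanced glycation end products, had 26.2, 23.1 and 25.8 FPKM in the KG-1 ASLAN003 libraries, against 8.19, 8.08 and 4.68 FPKM in the KG-1 DMSO libraries. It had 33.6, 37.6 and 14.2 FPKM in the MOLM-14 ASLAN003 libraries, against 7.05, 4.17 and 1.07 FPKM in the MOLM-14 DMSO libraries. In both MOLM-14 groups replicate 3 was the lowest library, and the groups did not overlap in either line. Mean FPKM was 3.59-fold higher in KG-1 (log2 change 1.74 ± 0.44, adjusted p = 0.009) and 6.95-fold higher in MOLM-14 (2.63 ± 0.44, adjusted p = 0.00281). S100P ranked 320 by log2 rise in KG-1 and 10 in MOLM-14. Its MOLM-14 call was lost when each line was fitted alone (adjusted p = 0.0502). Without MOLM-14 ASLAN003 replicate 1 the change of S100P in MOLM-14 was 2.46 (adjusted p = 0.0153).

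The members with wide tissue distribution had smaller fold changes than the calgranulins in both lines. S100A4, which binds the heavy chain of non-muscle myosin IIA, had 1072, 1017 and 1229 FPKM in the KG-1 ASLAN003 libraries, against 319, 309 and 344 FPKM in the KG-1 DMSO libraries. In MOLM-14 it had 860.3, 761 and 717 FPKM with ASLAN003, against 205, 194 and 213 FPKM with DMSO. S100A4 libraries lay close together within each group, with a wide gap between treatments. Its log2 change was 1.77 ± 0.097 in KG-1 (3.41-fold by mean FPKM, adjusted p = 2.01e-07) and 1.93 ± 0.097 in MOLM-14 (3.82-fold, adjusted p = 6.82e-07).

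S100A6, or calcyclin, had 358, 343 and 463 FPKM in the KG-1 ASLAN003 libraries, against 146, 141 and 155 FPKM in the KG-1 DMSO libraries. In MOLM-14 it had 663, 529.5 and 498 FPKM with ASLAN003, against 215, 225 and 216 FPKM with DMSO. The groups did not overlap, and S100A6 was higher in MOLM-14 than in KG-1 under either treatment. Its log2 change was 1.38 ± 0.13 in KG-1 (2.63-fold, adjusted p = 6.21e-06) and 1.35 ± 0.13 in MOLM-14 (2.58-fold, adjusted p = 7.68e-05).

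S100A10, also called p11, is the member that does not bind calcium and forms a complex with annexin A2. It had 121, 141 and 176 FPKM in the KG-1 ASLAN003 libraries, against 47.1, 38.5 and 53.5 FPKM in the KG-1 DMSO libraries. In MOLM-14 it had 236, 208 and 171 FPKM with ASLAN003, against 83.1, 86.6 and 93.5 FPKM with DMSO. All ASLAN003 libraries again lay above the DMSO libraries of their line. S100A10 changed by 1.63 ± 0.16 in KG-1 (3.15-fold, adjusted p = 9.35e-06) and by 1.2 ± 0.16 in MOLM-14 (2.33-fold, adjusted p = 0.000716).

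S100A11, which binds annexin A1, had 851, 889.5 and 796 FPKM in the KG-1 ASLAN003 libraries, against 390.0, 371 and 398 FPKM in the KG-1 DMSO libraries. In MOLM-14 it had 406, 354 and 321 FPKM with ASLAN003, against 199, 182 and 189 FPKM with DMSO. The rise of S100A11 was the smallest of the 8 in both lines, with no overlap between groups. Its log2 change was 1.13 ± 0.094 in KG-1 (2.19-fold, adjusted p = 3.15e-06) and 0.91 ± 0.094 in MOLM-14 (1.90-fold, adjusted p = 0.00014). Without MOLM-14 ASLAN003 replicate 1, the MOLM-14 changes were 1.85 for S100A4, 1.23 for S100A6, 1.09 for S100A10 and 0.83 for S100A11, all still called (adjusted p from 6.35e-07 to 0.00212).

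The order of the 8 genes by level differed between groups. In KG-1 ASLAN003 the order was S100A9, S100A8, S100A4, S100A11, S100A6, S100A12, S100A10 and S100P, where the libraries of S100A12 and S100A10 overlapped. In KG-1 DMSO it was S100A9, S100A11, S100A4, S100A8, S100A6, S100A10, S100P and S100A12, where those of S100P and S100A12 overlapped. In MOLM-14 ASLAN003 the first 3 were S100A9, S100A8 and S100A4, whose neighbours in the order overlapped, followed by S100A6, S100A11, S100A10, S100P and S100A12 with no overlap between neighbours. In MOLM-14 DMSO S100A6 was highest (219 ± 5.67 FPKM, SD, n = 3), followed by S100A4, S100A11, S100A10, S100A9, S100A8, S100P and S100A12. In that group S100A4 overlapped S100A11, S100A10 overlapped S100A9, and S100P overlapped S100A12.

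The 8 genes together made up 4.14%, 4.39% and 4.68% of all listed FPKM in the KG-1 ASLAN003 libraries, against 0.266%, 0.263% and 0.229% in the KG-1 DMSO libraries. In MOLM-14 they made up 0.797%, 0.372% and 0.355% with ASLAN003, against 0.106%, 0.0964% and 0.0977% with DMSO. The groups did not overlap in either line, and MOLM-14 ASLAN003 replicate 1 was above the rest of its group. The mean share was higher under ASLAN003 by 4.15 percentage points in KG-1 and by 0.408 in MOLM-14, or by 0.264 without that library. Calprotectin, S100A8 and S100A9 summed, was 91.1% ± 0.252 of the FPKM of the 8 genes in KG-1 ASLAN003, against 52.4% ± 6.11 in KG-1 DMSO (SD, n = 3 each). In MOLM-14 it was 45.3% ± 14.8 with ASLAN003, against 15.9% ± 3.01 with DMSO. The other 6 genes together had a 3.29-fold higher share in KG-1, 0.393% ± 0.0219 with ASLAN003 against 0.119% ± 0.00498 with DMSO. In MOLM-14 theirs was 3.01-fold higher, 0.253% ± 0.0403 with ASLAN003 against 0.0840% ± 0.00176 with DMSO. Over the same libraries, the share of 85 cytosolic ribosomal protein genes was 16.1% ± 0.557 in KG-1 ASLAN003, against 26.7% ± 0.599 in KG-1 DMSO. It was 25.9% ± 2.64 in MOLM-14 ASLAN003, against 34.5% ± 0.385 in MOLM-14 DMSO. With libraries rescaled without those genes, all 8 members were still called higher in both lines.

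The balance of the calprotectin subunits was taken as the difference of their log2(FPKM + 1) values, S100A8 minus S100A9. In KG-1 it was -0.82, -0.78 and -0.70 with ASLAN003, against -1.68, -1.68 and -1.60 with DMSO. Every KG-1 ASLAN003 library was above every KG-1 DMSO library, so S100A8 RNA lay closer to the S100A9 level under treatment. The difference was 0.89 and its exact two-sided permutation p = 0.1 is the smallest that 3 libraries against 3 allow. In MOLM-14 the balance was -0.42, -0.59 and -0.53 with ASLAN003, against -0.90, -0.54 and -0.53 with DMSO. The MOLM-14 groups overlapped, with a difference of 0.15 (exact two-sided permutation p = 0.4), which was 0.024 without MOLM-14 DMSO replicate 1.

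**Figure D2:**
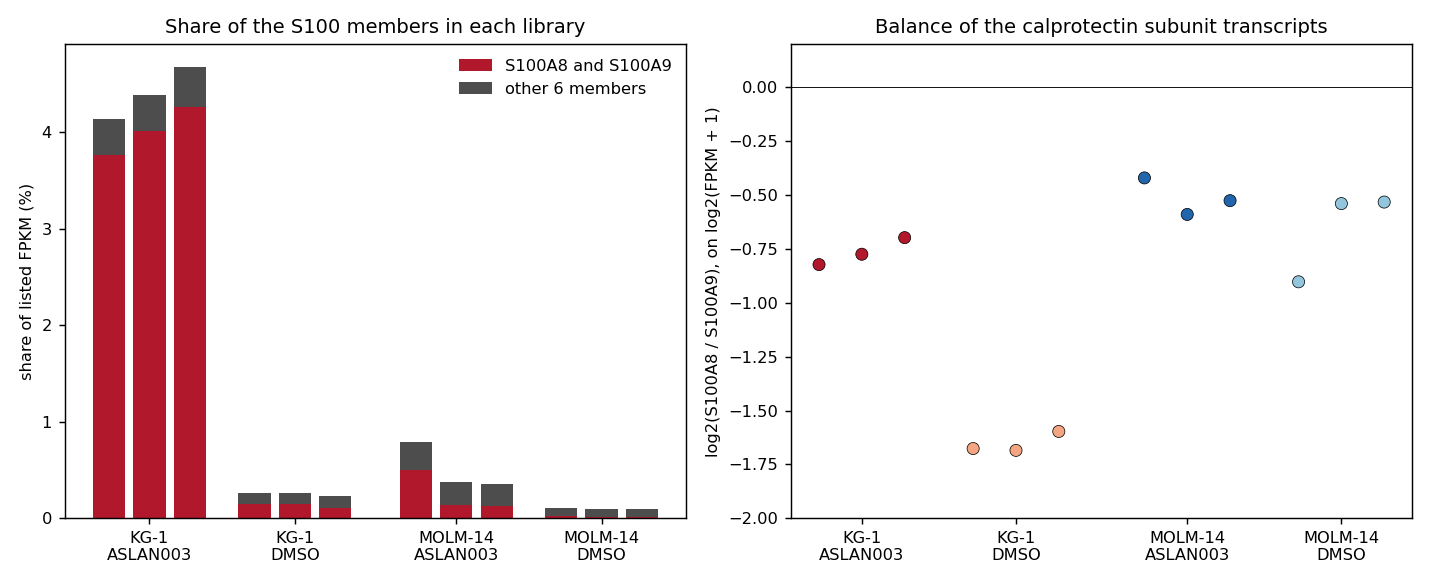
Left, share of the listed FPKM in percent for each library, stacked as S100A8 and S100A9 (red) and the other 6 S100 genes (grey); right, log2 of S100A8 over S100A9 in each library. The KG-1 ASLAN003 bars reach 4.14% to 4.68%, and the balance separates the treatments in KG-1 but overlaps in MOLM-14.

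Whether a gene responded differently in the 2 lines was tested as the difference of its changes, KG-1 minus MOLM-14. Only 1 of 8 members was called, where 9.94% of all tested genes were called (5.05% higher and 4.89% lower). For S100A12 the difference was 2.06 ± 0.47 (95% interval 1.04 to 3.09, adjusted p = 0.0169), and with a pseudocount of 0.1 it was 0.42 (adjusted p = 0.864). The call of S100A12 thus depended on the pseudocount. S100A8 differed by 1.71 ± 0.59 (interval 0.41 to 3.01, adjusted p = 0.0959) and S100A9 by 0.97 ± 0.58 (interval -0.32 to 2.25, adjusted p = 0.344). Without MOLM-14 ASLAN003 replicate 1 both were called, S100A8 at 2.34 (adjusted p = 4.09e-05) and S100A9 at 1.55 (adjusted p = 0.00386), when 2357 genes were called in place of 1327.

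For the other 5 members the difference of changes did not pass in the fit as reported. It was -0.89 ± 0.62 for S100P (95% interval -2.24 to 0.46, adjusted p = 0.418) and -0.16 ± 0.14 for S100A4 (interval -0.46 to 0.14, adjusted p = 0.518). S100A6 had 0.026 ± 0.18 (interval -0.36 to 0.41, adjusted p = 0.949). For S100A10 it was 0.43 ± 0.22 (interval -0.062 to 0.91, adjusted p = 0.271) and for S100A11 0.21 ± 0.13 (interval -0.075 to 0.50, adjusted p = 0.358). The intervals of S100A4, S100A6 and S100A11 lie within 0.50 of 0 on the log2 scale, while that of S100P is wide. With quantile normalization the difference of S100A11 passed (0.58, adjusted p = 0.0323) and the sign for S100A4 turned to 0.44 (adjusted p = 0.0615), and that for S100A6 turned without any of 4 libraries.

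**Figure D3:**
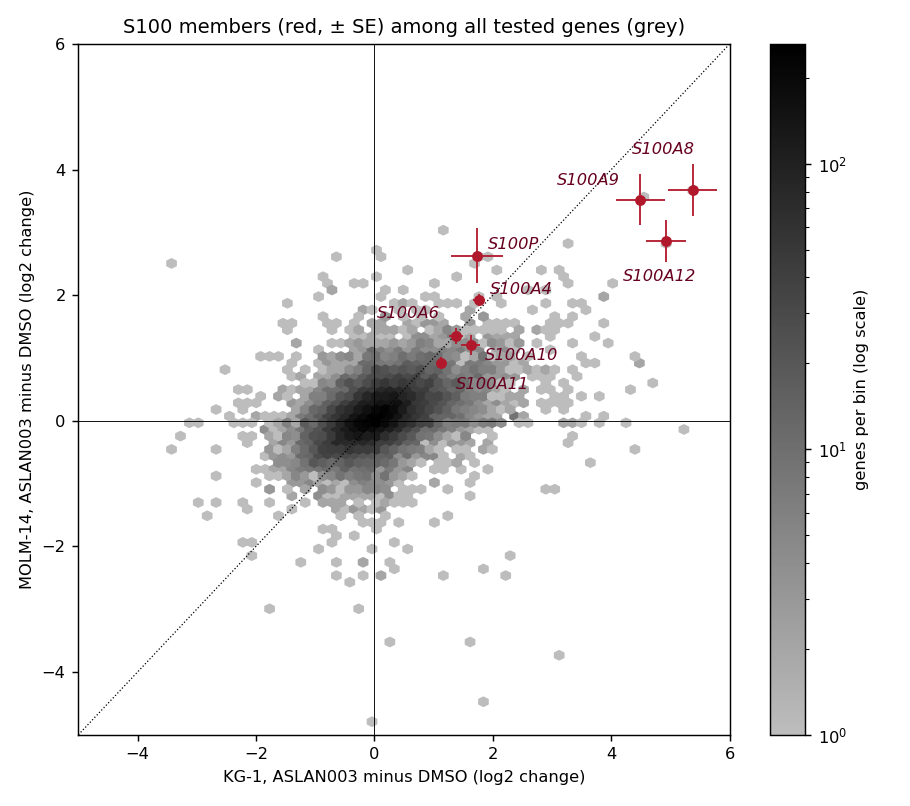
Log2 change under ASLAN003 in KG-1 (horizontal) and in MOLM-14 (vertical), with all tested genes as grey bins, the 8 S100 genes as red points with SE bars and a dotted line of equal change. All 8 points lie in the upper right, with S100A8, S100A9 and S100A12 farthest out and to the right of the dotted line.

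The lines also differed from each other under the same treatment. In ASLAN003, 5 of 8 members were higher in KG-1 than in MOLM-14 and 2 were lower, where 53.1% of tested genes differed (27.9% higher and 25.2% lower in KG-1). In DMSO, 5 were higher in KG-1 and 2 were lower, where 49.2% of tested genes differed (27.1% higher and 22.1% lower in KG-1). The same 5 genes were higher in KG-1 under both treatments, namely S100A8, S100A9, S100A12, S100A4 and S100A11, and the same 2 were lower, S100A6 and S100A10. S100A9 was 15.4-fold higher in KG-1 than in MOLM-14 with ASLAN003 (log2 4.19 ± 0.41, adjusted p = 9.84e-06), or 27.4-fold (log2 4.78) without MOLM-14 ASLAN003 replicate 1, and 9.35-fold higher with DMSO (3.23 ± 0.41, adjusted p = 8.46e-05). S100A8 was 12.6-fold higher with ASLAN003 (3.94, adjusted p = 1.73e-05), or 23.8-fold (4.57) without that library, and 4.79-fold higher with DMSO (2.23, adjusted p = 0.00118). The comparisons between lines share libraries with those between treatments.

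S100A12 was higher in KG-1 by 4.03 on the log2 scale with ASLAN003 (adjusted p = 5.88e-07) and by 1.96 with DMSO (adjusted p = 0.000362), or 3.73 in DMSO with a pseudocount of 0.1. S100A11 was higher by 1.23 with ASLAN003 (adjusted p = 2.54e-07) and 1.02 with DMSO (adjusted p = 1.8e-06), and S100A4 by 0.50 (adjusted p = 0.000767) and 0.66 (adjusted p = 0.000103). S100A6 differed by -0.54 with ASLAN003 (adjusted p = 0.00292) and -0.56 with DMSO (adjusted p = 0.00241). S100A10 differed by -0.49 with ASLAN003 (adjusted p = 0.0197), where libraries of the lines overlapped, and by -0.92 with DMSO (adjusted p = 0.000402). The S100A10 call in ASLAN003 was lost without KG-1 ASLAN003 replicate 1 (adjusted p = 0.095) or 2 (adjusted p = 0.0551), or without MOLM-14 ASLAN003 replicate 1 (adjusted p = 0.0655). S100P overlapped between the lines, with a difference of -0.070 with ASLAN003 (adjusted p = 0.907) and 0.82 with DMSO (adjusted p = 0.143). Without MOLM-14 DMSO replicate 1, the DMSO difference of S100P passed (1.25, adjusted p = 0.0317), and without MOLM-14 DMSO replicate 3 it was 0.27 (adjusted p = 0.569).

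Of 12 further S100 genes looked up, 4 were in the table and 2 were tested. S100A1, known from heart muscle as a calcium-handling protein, had 14.1, 17.9 and 23.0 FPKM in KG-1 ASLAN003, against 7.25, 5.93 and 4.62 FPKM in KG-1 DMSO. S100A13, which takes part in the unconventional release of fibroblast growth factor, had 27.8, 24.0 and 12.95 FPKM in KG-1 ASLAN003, against 7.66, 8.03 and 6.52 FPKM in KG-1 DMSO. Both rose in KG-1 without overlap, S100A1 by 1.47 ± 0.40 (adjusted p = 0.0123) and S100A13 by 1.37 ± 0.28 (adjusted p = 0.00229). In MOLM-14 their libraries overlapped, with changes of 0.31 for S100A1 (adjusted p = 0.663) and 0.22 for S100A13 (adjusted p = 0.657). The difference between lines did not pass for S100A1 (1.16, adjusted p = 0.225) or S100A13 (1.1, adjusted p = 0.088). The KG-1 call of S100A1 was lost without KG-1 ASLAN003 replicate 3 (adjusted p = 0.0525) or KG-1 DMSO replicate 3 (adjusted p = 0.0504). Without MOLM-14 ASLAN003 replicate 2, 1 of these genes was called higher in MOLM-14. S100A1 and S100A13 overlap on opposite strands over 3435 bases. AL162258.1, also listed, overlaps S100A13 on the same strand (5029 bases) and all 4114 bases of S100A1 on the opposite strand. The listed AL162258.2 overlaps S100A1 on the opposite strand (602 bases). The values of S100A1 and S100A13 are therefore uncertain, and strand cannot separate reads of S100A13 and AL162258.1. S100A16 was at most 0.12 FPKM and S100B, a protein of glia, at most 1.81 FPKM in any library.

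Genes beside the cluster that encode no S100 protein were also followed. Of 12 tested, 4 were called higher and 3 lower in KG-1, where 33.7% of all tested genes were called (19.4% higher and 14.3% lower). In MOLM-14, 1 of the 12 was called higher, where 9.69% of all tested genes were. The median log2 change was 0.19 in KG-1 and 0.032 in MOLM-14. In KG-1, DENND4B, an exchange factor for RAB proteins, rose by 1.10 (adjusted p = 0.00102) and SLC27A3, an acyl-CoA synthetase, by 1.02 (adjusted p = 0.000659). RAB13, a small GTPase, rose by 0.86 in KG-1 (adjusted p = 0.000444), and SNAPIN, which binds SNARE proteins, rose by 0.45 (adjusted p = 0.00928). These 4 calls stood under every alternative run. The count of genes called lower in KG-1 was 1 without KG-1 ASLAN003 replicate 2 or KG-1 DMSO replicate 1 or 2, and that called higher was 7 with libraries rescaled to a common listed FPKM total, or 8 with the S100 genes also left out of the total. In MOLM-14 RAB13 changed by 0.53 (adjusted p = 0.025), a call lost without any 1 of 5 MOLM-14 libraries (adjusted p from 0.0525 to 0.0861), with ASLAN003 replicate 3 the exception, without which 3 neighbours were called higher. Without KG-1 DMSO replicate 3, 2 were called higher in MOLM-14. With libraries rescaled to a common listed FPKM total, with or without the S100 genes in it, 4 were called higher there. The smallest rise among the tested S100 genes on the chromosome was 1.13 in KG-1. In MOLM-14 it was 0.91 among the members. S100A1 and S100A13, with 0.31 and 0.22 in MOLM-14, lay within the range of the neighbours there (-0.35 to 0.62).

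**Figure D4:**
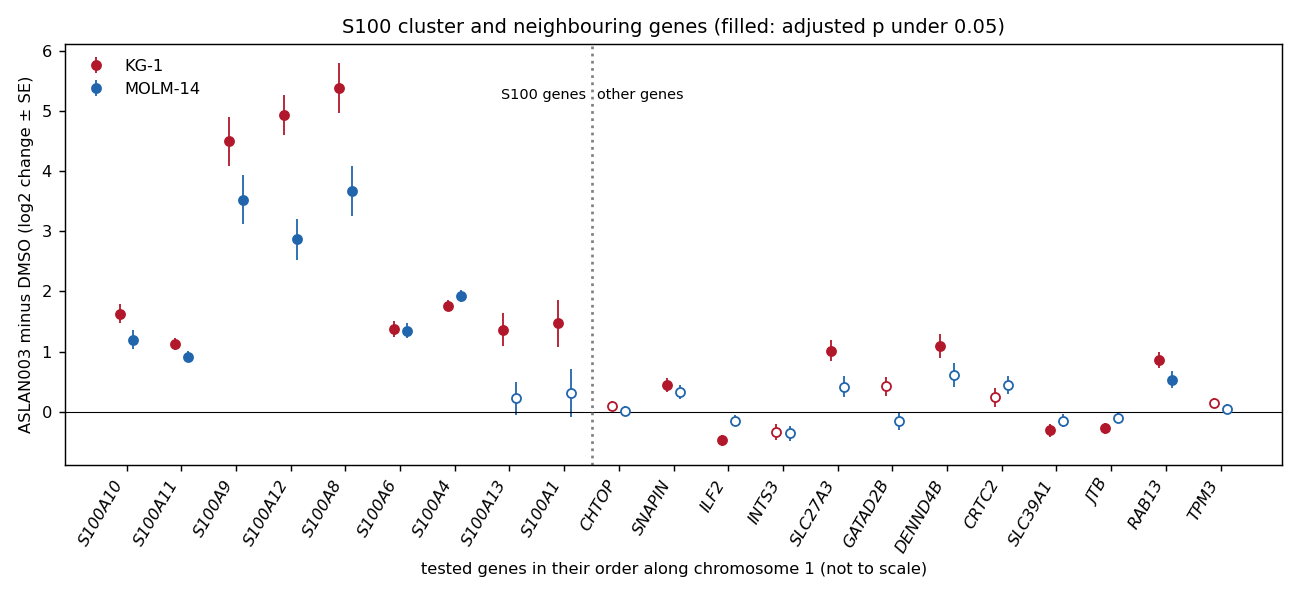
Log2 change under ASLAN003 with SE for each tested gene of the S100 region, in their order along chromosome 1, with S100 genes left of the dotted line and other genes right of it; filled points have an adjusted p under 0.05. S100A9, S100A12 and S100A8 stand highest in both lines, while the genes to the right of the line lie at 1.10 or below.

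Among receptors of released S100 proteins, 8 of 10 listed genes were tested. In KG-1, 5 were called higher and 0 lower (median change 0.84), where 19.4% of all tested genes were called higher and 14.3% lower. For MOLM-14 the counts were 2 higher and 0 lower (median 0.42), against 9.69% and 3.33% of all tested genes. CD36, a scavenger receptor that takes up fatty acids carried by calprotectin, had 12.4, 12.4 and 18.5 FPKM in KG-1 ASLAN003, against 0.98, 0.49 and 0.28 FPKM in KG-1 DMSO. Its libraries did not overlap between treatments in either line. It rose by 3.28 ± 0.22 in KG-1 (adjusted p = 7.77e-07) and by 1.64 ± 0.22 in MOLM-14 (adjusted p = 0.000794), and its difference between lines was called (1.64, adjusted p = 0.00684). TLR4, the signalling receptor for calprotectin, had 10.7, 10.3 and 11.8 FPKM in KG-1 ASLAN003, against 1.92, 2.07 and 3.21 FPKM in KG-1 DMSO. It rose by 1.82 ± 0.27 in KG-1 (adjusted p = 0.000222). Its MOLM-14 libraries overlapped at 2.43, 0.61 and 1.23 FPKM with ASLAN003, against 0.94, 0.53 and 0.30 FPKM with DMSO (0.56, adjusted p = 0.198). With all 12 libraries, the difference of its changes between the lines was not called.

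CD14, a co-receptor of TLR4, rose by 1.67 ± 0.40 in KG-1 (adjusted p = 0.0067, and 3.00 with a pseudocount of 0.1). There it had 2.70, 2.38 and 4.93 FPKM with ASLAN003, against 0.18, 0.31 and 0.49 FPKM with DMSO. Its MOLM-14 libraries overlapped at 3.98, 0.71 and 0.54 FPKM with ASLAN003, against 0.30, 0.85 and 0 FPKM with DMSO. Neither its MOLM-14 change nor its difference between the lines was called. NPTN, an immunoglobulin-family receptor of S100A8, rose by 1.18 ± 0.099 in KG-1 (adjusted p = 3.28e-06) and had a change of 0.28 in MOLM-14 (adjusted p = 0.078), a difference that passed (0.90, adjusted p = 0.00238). ALCAM, an adhesion molecule that binds S100B, rose in MOLM-14 (0.87 ± 0.19, adjusted p = 0.0113). With that line fitted alone the change of ALCAM was the same 0.87, without a call (adjusted p = 0.105). The fifth call in KG-1 was BSG, a receptor of S100A9, named after its value was seen. BSG changed by 0.27 ± 0.090 (adjusted p = 0.0374) and lost its call in 10 of 24 alternatives. Among these were the fits without KG-1 ASLAN003 replicate 1 or 3, without any 1 KG-1 DMSO library or without MOLM-14 DMSO replicate 1 or 2 (adjusted p from 0.0512 to 0.134). AGER, the receptor for advanced glycation end products, was at 2.94 to 8.07 FPKM in all 12 libraries and changed by -0.025 in KG-1 (adjusted p = 0.959) and 0.20 in MOLM-14 (adjusted p = 0.693).

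Of 13 intracellular partners tested, 3 were called higher and 3 lower in KG-1 (median change 0.048). Over all tested genes, 19.4% were called higher and 14.3% lower there. For MOLM-14 the partner counts were 3 higher and 0 lower (median 0.020), against 9.69% and 3.33% of all tested genes. In MOLM-14, 1 was called lower without ASLAN003 replicate 1, and 5 were called higher without ASLAN003 replicate 3 or with libraries rescaled to a common listed FPKM total, with or without the S100 genes in it. ANXA1, the annexin bound by S100A11, had 71.6, 86.9 and 80.4 FPKM in KG-1 ASLAN003, against 15.2, 14.3 and 24.2 FPKM in KG-1 DMSO. In MOLM-14 it had 71.0, 68.1 and 48.8 FPKM with ASLAN003, against 17.3, 16.3 and 16.4 FPKM with DMSO. The treatments did not overlap in either line. ANXA1 rose by 2.12 ± 0.19 in KG-1 (adjusted p = 4.7e-06) and by 1.83 ± 0.19 in MOLM-14 (adjusted p = 0.00014).

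ANXA2, the annexin bound by S100A10, had 93.2, 101 and 104 FPKM in KG-1 ASLAN003, against 95.0, 94.4 and 88.5 FPKM in KG-1 DMSO. In MOLM-14 it had 236, 184 and 174 FPKM with ASLAN003, against 100.0, 89.8 and 91.1 FPKM with DMSO. The treatments thus overlapped in KG-1 and stood apart in MOLM-14, whereas S100A10 rose in both. ANXA2 changed by 0.10 ± 0.11 in KG-1 (adjusted p = 0.521) and by 1.06 ± 0.11 in MOLM-14 (adjusted p = 0.000165), and the difference was called (-0.96 ± 0.16, adjusted p = 0.00322). ANXA6, another annexin, was called in MOLM-14 (0.46, adjusted p = 0.0152), but not without MOLM-14 DMSO replicate 3 (0.41, adjusted p = 0.0554).

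MYH9, the myosin heavy chain bound by S100A4, rose by 1.02 ± 0.18 in KG-1 (adjusted p = 0.000913) and IQGAP1, a scaffold protein bound by S100P, by 0.97 ± 0.20 (adjusted p = 0.00284). In MOLM-14 MYH9 changed by 0.31 (adjusted p = 0.305) and IQGAP1 by -0.050 (adjusted p = 0.916). Both values include MOLM-14 ASLAN003 replicate 1, which was the highest of its group. There MYH9 had 192 FPKM against 108 and 109 FPKM in replicates 2 and 3, and IQGAP1 66.4 against 36.1 and 31.9 FPKM. With all 12 libraries the difference between the lines was not called for MYH9. For IQGAP1 it was 1.02 (adjusted p = 0.0427), a call lost in 14 of 23 alternatives. PPFIBP1, a liprin bound by S100A4, fell in KG-1 to 3.85, 3.49 and 2.18 FPKM with ASLAN003, against 5.72, 5.74 and 6.91 FPKM with DMSO (-0.79 ± 0.20, adjusted p = 0.00846). Its MOLM-14 change was 0.58 (adjusted p = 0.0754), and the difference was called (-1.37, adjusted p = 0.00984). The other 2 falls in KG-1, MYH10 (a second non-muscle myosin heavy chain, adjusted p = 0.027) and CACYBP (the S100A6-binding calcyclin-binding protein, adjusted p = 0.0279), lost their calls under several alternatives. MYH10 lost its call without KG-1 ASLAN003 replicate 3 or KG-1 DMSO replicate 1 or 2 (adjusted p from 0.0805 to 0.114). Without any 1 of the libraries named for MYH10, 1 partner was called lower in KG-1. CACYBP lost its call without KG-1 ASLAN003 replicate 1 or 3 or any 1 KG-1 DMSO library (adjusted p from 0.0613 to 0.108).

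Of 11 transcription factors of myeloid cells, some of them known to bind calgranulin promoters, 5 were called higher and 3 lower in KG-1 (median change 0.63). Over all tested genes, 19.4% were called higher and 14.3% lower there. For MOLM-14 the counts of factors were 4 higher and 0 lower (median 0.24), against 9.69% and 3.33% of all tested genes. KLF4, a zinc-finger factor of monocyte differentiation, rose by 1.69 ± 0.22 in KG-1 (adjusted p = 1e-04) and by 1.56 ± 0.22 in MOLM-14 (adjusted p = 0.00112). SPI1, which encodes PU.1, rose by 0.98 ± 0.14 in KG-1 (adjusted p = 0.000147) and by 0.65 ± 0.14 in MOLM-14 (adjusted p = 0.00893, and 0.0878 with that line fitted alone). CEBPE, the C/EBP factor of late granulocyte maturation, had 127, 117 and 103 FPKM in KG-1 ASLAN003, against 50.2, 50.2 and 44.5 FPKM in KG-1 DMSO. It was at most 1.36 FPKM in any MOLM-14 library, and its rise of 1.24 ± 0.19 in KG-1 was called (adjusted p = 0.000291). GFI1, a repressor in granulocyte development, rose by 0.71 in KG-1 (adjusted p = 0.000992). The remaining calls, 4 in KG-1 and 2 in MOLM-14, were each lost under at least 1 alternative, and the 3 falls in KG-1 were all among them. Named after their values were seen, these were CEBPA (-0.34, adjusted p = 0.0113), IRF8 (-0.36, adjusted p = 0.0456) and MYB (-0.31, adjusted p = 0.00846). They kept their calls in 20, 14 and 21 of 24 alternatives. IRF8 rose in MOLM-14 (0.42, adjusted p = 0.0484). Differences between lines were called for 2 factors higher and 2 lower, with IRF8 at -0.78 (adjusted p = 0.0174). Without KG-1 DMSO replicate 1, 1 factor was called lower in KG-1, and with libraries rescaled to a common listed FPKM total 6 were called higher and 0 lower there. With the S100 genes also left out of that total, 8 were called higher and 0 lower. In MOLM-14, 2 were called higher without ASLAN003 replicate 1 or without any 1 DMSO library, and 1 was called lower without ASLAN003 replicate 3.

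**Figure D5:**
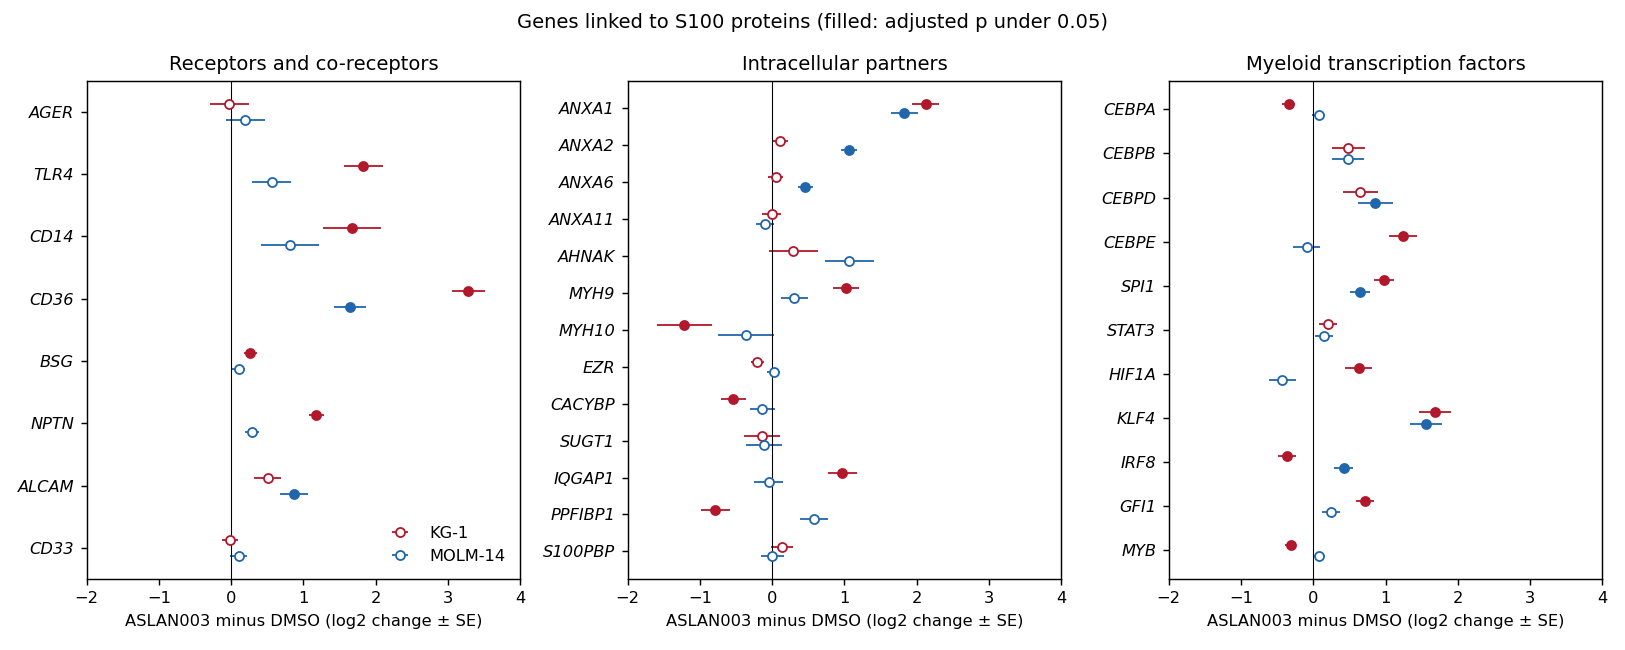
Log2 change under ASLAN003 in KG-1 and MOLM-14 for receptors, intracellular partners and transcription factors linked to the S100 genes, 1 row per gene with SE bars. CD36 and ANXA1 had the largest rises of the receptors and partners shown in KG-1, and ANXA2 and ANXA6 were called in MOLM-14 and lay near 0 in KG-1.

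Profiles over the 12 libraries were compared after subtracting each gene's own mean, as the root-mean-square difference on the log2 scale, over 10532 other genes whose mean reached 5 FPKM in at least 1 group. The libraries share treatments and lines, so likeness is a description and has no test. Within the family, S100A8 and S100A9 differed by 0.46, S100A12 and S100A8 by 0.64, and S100A10 and S100A6 by 0.17. Nearest to S100A8 were ITGAM (0.98), the integrin alpha M chain, and ITGAX (1.11), the alpha X chain, and nearest to S100A9 were BPI (0.86), a bactericidal granule protein, and ITGAM (1.06). Nearest to S100A12 were ITGAM (0.77) and PILRA (0.93), an inhibitory receptor of myeloid cells. S100P was nearest to LGALS3 (0.52), which encodes galectin-3, and RBM47 (0.55), an RNA-binding protein. S100A4 was nearest to DAPP1 (0.21), an adaptor of phosphoinositide signalling, and SERPINB1 (0.25), an inhibitor of neutrophil proteases. S100A6 was nearest to CSF2RA (0.13), a receptor chain for GM-CSF that the table lists for both sex chromosomes, and IL1RN (0.19), the interleukin-1 receptor antagonist. S100A10 was nearest to SH3BGRL3 (0.17) and RNASE6 (0.18), an antimicrobial ribonuclease. S100A11 was nearest to DRAM1 (0.14), a lysosomal membrane protein, and TIMP2 (0.14), an inhibitor of metalloproteinases. Of the 10532 genes compared, from which clone names were left out, none was as close to a calgranulin as S100A8 and S100A9 were to each other. The measure keeps the size of a change, and the calgranulins had the largest rises of the family. It therefore cannot separate likeness of pattern from size of rise. S100A6 was nearer to CSF2RA (0.13) than to S100A10 (0.17).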

How the data were processed

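Per the labels' protocols, a stranded total RNA kit was used and sequencing was paired-end. The submitters' processing notes name RSEM 1.2.25, STAR 2.4.2a, bcl2fastq 2.17.1.14 and the build hg38 (GRCh38), and no source used here names the annotation. The deposited table holds log2 values that lie on the scale log2(FPKM + 1), judged from steps of 0.01 FPKM. Because FPKM is scaled to the library, a few abundant transcripts can shift every other gene. No counts were given. Depth was estimated from the steps of 38 to 53 low values per library, of which 78.4% to 91.8% lay within 0.15 fragment of a whole number, for a fragment length of 190.

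With limma 3.58.1 in R 4.3.3, 4 group means were fitted over 12 libraries to log2(FPKM + 1), with a pseudocount of 1, for 13353 genes with at least 1 FPKM in 3 libraries. The fit was moderated with a mean trend and robust estimation. Two-sided p-values were adjusted by Benjamini-Hochberg over all tested genes, with a threshold of 0.05. SEs come from the moderated fit, which pools the spread of all groups. Log2 changes understate those of low genes. The procedure was tested on simulated data. All 12 columns matched the labels by name, and 13784 of 13881 identifiers were found in GENCODE 29. Promoter sequences are RefSeq's (GRCh38.p14), matched by symbol for all 8 genes.

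The members, lists, motifs and the rule for genes named (the 8 members, and per list at most 4 called genes per line by size of change) were chosen with earlier results of these data known. An intracellular partner on the original list is not reported here. Alternatives were a pseudocount of 0.1, no filter or one at 5 FPKM, centring and quantile normalization. Libraries were also rescaled without 181 histone, mitochondrial and non-coding small or ribosomal RNA genes, without 85 ribosomal protein genes or without the members. Each rescaling equalised the total of the genes kept. Further alternatives were plain moderation (neither trend nor robust), a block for the replicate number, each line alone and each library left out. Their use on the linked lists, and rescaling with no gene left out, were added after seeing the data.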

Additional observations from a re-analysis of the deposited data

Results flagged for a closer look

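S100A12 drew attention because its change under ASLAN003 differed between the lines by a test of the difference itself. The difference, KG-1 minus MOLM-14, was 2.06 on the log2 scale (SE 0.47, limma with Benjamini-Hochberg adjusted p = 0.0169), from changes of 4.93 in KG-1 and 2.86 in MOLM-14. All 3 ASLAN003 libraries lay above all 3 DMSO libraries in each line. Over the alternatives the difference lay between 0.42 and 2.34 and the adjusted p between 0.00813 and 0.864. The lowest value and the highest p came from the pseudocount of 0.1. The difference was called in the other 22 of 23 alternatives, but all of these kept the pseudocount of 1. They therefore cannot show whether the call holds apart from that choice. In MOLM-14 DMSO the gene rested on an estimated 0, 10.8 and 1.0 fragments.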

How the results depend on the processing

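For the 8 members in the treatment comparisons, 383 of 384 alternative values kept their direction and call. The exception was S100P in MOLM-14 with each line fitted alone, a setting that called 346 genes in MOLM-14 in place of 1738. Fits that altered only the filter, the moderation, the block or the libraries of the other line left the log2 change as it was. In those fits only the call could change, not the direction. Leaving out 1 library gave 1070 to 2319 called genes in MOLM-14. For the difference between lines, 0 members were called with a pseudocount of 0.1 and 2 with quantile normalization, S100A12 and S100A11. Leaving out 1 library gave 1 to 3 called members there, and 745 to 2357 called genes against 1327. The difference of S100A4 turned from -0.16 to 0.44 with quantile normalization. That of S100A6 lay between -0.11 and 0.15 with 1 library left out, below 0 without KG-1 ASLAN003 replicate 3 (-0.11), KG-1 DMSO replicate 2 (-0.0042) or MOLM-14 ASLAN003 replicate 2 (-0.013) or 3 (-0.057). S100P between lines in ASLAN003 turned to 0.090 with rescaling without the 181 histone, mitochondrial and small or ribosomal RNA genes, to 0.16 with rescaling without the members, to 0.10 with rescaling to a common total, and lay between -0.49 and 0.18 with 1 library left out (0.10 and 0.18 without MOLM-14 ASLAN003 replicate 1 or 2). Apart from fewer samples or fewer residual degrees of freedom, the causes were not tested. The difference of the summed share in KG-1 was 4.37 percentage points, in place of 4.15, with those 181 genes left out of the total.

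Scaling shifted the all-gene median change by over 0.1, to -0.071 in KG-1 and -0.074 in MOLM-14 with centring. The listed FPKM totals were lower with ASLAN003 by 0.17 in KG-1 and 0.12 in MOLM-14 on the log2 scale. Rescaling to a common total made these totals equal, while each other rescaling equalised only the total of the genes kept. With no gene left out, a setting added after seeing the data, the medians were 0.20 and 0.18. They were 0.18 and 0.19 without the 181 genes and 0.25 and 0.19 without the members, so leaving out the members added 0.053 and 0.0048 to the common total. Calls higher and lower in KG-1 were 1994 and 2671 with centring, 3701 and 1287 with the common total, 3522 and 1321 without the 181 genes and 4227 and 1119 without the members, against 2585 and 1909 as reported. In MOLM-14 they were 728 and 921 with centring, 2101 and 305 with the common total, 2165 and 292 without the 181 genes and 2144 and 302 without the members, against 1294 and 444. The 3 falls of transcription factors in KG-1 and the S100A10 difference between lines in ASLAN003 lost their calls with the common total (S100A10 adjusted p = 0.108), without the 181 genes (0.094) and without the members (0.185), and the S100A6 difference lost its call without the members (0.0638, against 0.0306 with the common total).

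Same-numbered libraries deviated together by correlations of 0.0197 to 0.0407 in KG-1 and -0.0019 to 0.10 in MOLM-14, so the numbers were not taken to pair them, and not every library correlated best with its own number. With the replicate number as a block, limma called 4400 genes in KG-1, 1598 in MOLM-14 and 1125 in the difference, and all 8 members in both lines. S100P then passed in DMSO between lines (adjusted p = 0.0132). Depth limits S100A12 in MOLM-14 DMSO, where 1 fragment is about 0.16 FPKM.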
